A study of Mus musculus with 9 samples.

Results

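The transcripts of 9 genes of the platelet and megakaryocyte lineage were followed across young, aged and CASIN-treated aged bone marrow. The members were chosen by symbol (Vwf, Selp, Clu, Itgb3, Itga2b, Pf4, Gp1bb, Gp9 and Treml1), and all 9 were found among the 31053 genes of the count matrices. Single-cell RNA was counted in Lin- cKit+ Sca1+ (LSK) cells, the fraction of C57BL/6 mouse bone marrow that holds hematopoietic stem cells and multipotent progenitors, in 9 samples of 3 groups. Young controls were 10 to 12 weeks old and aged controls were over 80 weeks old, and both received the cyclodextrin vehicle. The CASIN group was aged mice of over 80 weeks given CASIN, an inhibitor of the small RhoGTPase Cdc42, at 25 mg/kg by intraperitoneal injection every 24 h for 4 days. Each group had 3 samples, and the libraries were sequenced in 2 batches: batch 1 held young 1 and 2, aged 1 and CASIN 1 and 2, and batch 2 held young 3, aged 2 and 3 and CASIN 3. The labels do not say whether a sample was 1 animal or a pool, so p-values measure the spread between these samples. The cells had been frozen and thawed before capture, which all groups shared.

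Platelets are shed by megakaryocytes, large polyploid cells of the marrow that arise from stem cells through committed progenitors. A subset of stem cells carries transcripts of this lineage, von Willebrand factor (Vwf) foremost among them, and gives rise to platelets with few intermediates. Platelet-biased stem cells are known to gain in share as mice age. Procr encodes the endothelial protein C receptor (EPCR), a surface protein of mouse stem cells, and the genes were therefore compared separately in Procr-positive cells and in Procr-negative cells that carried Pf4 or Itga2b transcripts.

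After quality control 15856 cells remained. They were split by unique molecular identifiers (UMIs, each tagging 1 captured transcript). Procr-positive cells had at least 1 Procr UMI and numbered 7650, with 527 to 1400 in a sample. Cells named here Pf4/Itga2b-positive progenitors had no Procr UMI and at least 2 UMIs of Pf4 and Itga2b together, and numbered 1183, with 107 to 161 in a sample. The remaining 7023 cells served as the rest of the LSK fraction. At the edge of these gates, 3586 Procr-positive cells had exactly 1 Procr UMI, 553 progenitors had exactly 2 UMIs of Pf4 and Itga2b, and 1344 Procr-negative cells had 1 and were left among the other cells. Pf4 and Itga2b set the second gate, so their levels in those progenitors and in the remaining cells are given as descriptions.

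The name of the second population fitted its genes in part. Gata1, the master transcription factor of megakaryocyte and erythroid cells, was higher there than in Procr-positive cells (log2 fold change 3.70 ± 0.27 SE), as was Gp5, a subunit of the von Willebrand factor receptor (1.55 ± 0.25). A Gata1 UMI was nevertheless present in only 82 of the 1183 cells (6.93%), Flt3, a receptor of lymphoid-primed progenitors, in 334 and Cd48, a marker of multipotent progenitors, in 319. Gp6 and Tubb1, which mark mature megakaryocytes and platelets, were at 0 in all 3 groups there, while the other 3 of the 5 mature platelet markers (Gp5, Clec1b and Ppbp) had UMIs. Sult1a1, a stem cell gene, rose in these progenitors from young to aged by a log2 fold change of 3.19 ± 0.36. It was at 0.51 to 4.91 CPM in young (24 UMIs in all) and 0.75 to 50.2 CPM in aged samples (mean 18.4 CPM), which overlapped. Sult1a1 thus passed the filter on low counts through the aged and CASIN sums, so its place among the genes tested is partly fixed by the filter. Of the 4 stem cell markers tested between aged and young progenitors it was the only 1 that passed. Sult1a1 did not pass in the progenitors against the other cells (-0.09 ± 0.21, edgeR, adjusted p = 0.817). Of its list, Nupr1 was higher there (0.49 ± 0.17, edgeR, adjusted p = 0.0383) and Fgd5 did not pass (0.40 ± 0.20, edgeR, adjusted p = 0.154).

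The libraries held 19237354 to 42780953 UMIs over 1972 to 6528 barcodes, and the kept cells had a median of 9531.5 to 14622 UMIs. Cells of batch 2 carried more mitochondrial UMIs (library medians of 5.03% to 6.997%) than those of batch 1 (2.65% to 3.49%). Any pair of libraries shared at most 16 barcodes among kept cells. Kit and Ly6a, which encode the cKit and Sca1 of the sort, did not pass the test between aged and young in either population, while Ly6a was higher in CASIN than in young Procr-positive cells (0.56 ± 0.12, adjusted p = 0.0122). The UMIs of each population were added up within a sample, and levels are given as CPM, the UMIs of a gene scaled to the same total in every sum. In such sums, fewer cells with a transcript and less RNA per cell cannot be told apart.

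Regulatory sequence of the genes is shown first, since GATA and ETS factors, which bind GATA and GGAA cores, control megakaryocyte genes. Promoters from 250 bases before to 50 bases after the start of a gene were found for 6 of the 9 members in a RefSeq table (GRCm38.p6), and none was found for Vwf, Clu and Itgb3. They were searched on both strands for GATAA and for GGAAGT. Over all 32851 promoters, 25.4% held GATAA, 23.8% held GGAAGT and 5.96% held both. Among the members, 2 held GATAA and 4 held GGAAGT. Pf4 and Gp9 held both, Selp and Itga2b held GGAAGT only, and Gp1bb and Treml1 held neither. The 4 promoters with a match are printed 5′ to 3′ along the gene's strand, with matches of either strand in capitals (GATAA reads TTATC and GGAAGT reads ACTTCC on the other strand).
Selp, chr1:164115014-164115313, plus strand: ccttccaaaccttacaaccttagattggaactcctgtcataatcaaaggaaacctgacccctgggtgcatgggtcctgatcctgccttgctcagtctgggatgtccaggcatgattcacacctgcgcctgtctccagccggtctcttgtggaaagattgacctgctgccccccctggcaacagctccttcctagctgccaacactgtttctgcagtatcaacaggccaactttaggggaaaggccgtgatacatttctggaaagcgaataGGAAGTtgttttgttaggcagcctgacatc
Itga2b, chr11:102469834-102470133, minus strand: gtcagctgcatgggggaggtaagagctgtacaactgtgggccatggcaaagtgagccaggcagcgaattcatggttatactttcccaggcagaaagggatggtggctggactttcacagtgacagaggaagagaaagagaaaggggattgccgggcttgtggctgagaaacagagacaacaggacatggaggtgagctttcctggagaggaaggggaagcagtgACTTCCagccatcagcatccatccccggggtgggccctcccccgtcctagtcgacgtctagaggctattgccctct
Pf4, chr5:90772185-90772484, plus strand: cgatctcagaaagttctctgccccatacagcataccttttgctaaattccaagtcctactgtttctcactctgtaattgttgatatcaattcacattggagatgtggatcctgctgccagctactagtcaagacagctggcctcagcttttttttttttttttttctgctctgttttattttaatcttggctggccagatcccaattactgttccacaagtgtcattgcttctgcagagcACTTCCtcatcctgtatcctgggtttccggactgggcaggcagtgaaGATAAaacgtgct
Gp9, chr6:87777820-87778119, plus strand: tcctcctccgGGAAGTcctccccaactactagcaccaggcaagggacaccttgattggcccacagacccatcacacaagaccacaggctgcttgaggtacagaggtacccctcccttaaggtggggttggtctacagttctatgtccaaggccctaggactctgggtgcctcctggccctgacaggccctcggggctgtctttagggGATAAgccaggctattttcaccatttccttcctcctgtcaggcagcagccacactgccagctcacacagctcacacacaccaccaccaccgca
The Pf4 and Itga2b matches to GGAAGT lay on the opposite strand, shortly before the start used for these promoters. For Itga2b that start and its match lie inside the gene by the coordinates given below (chr11:102453297-102470122, minus strand). A match of letters is no proof of a binding site, and the genes of these 4 promoters did not move alike: Selp, Itga2b and Gp9 were higher in aged than in young Procr-positive cells and Pf4 was not.

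In Procr-positive cells the granule and adhesion genes Vwf, Selp and Clu rose the most of the 9 members between young and aged mice. Vwf (ENSMUSG00000001930, chr6:125546774-125686679, plus strand, GRCm38 as for all coordinates here) encodes von Willebrand factor, the multimeric protein that tethers platelets to injured vessel walls and is stored in megakaryocyte alpha granules. Its level was 3.68, 4.72 and 5.24 CPM in young 1, 2 and 3, and 61.0, 36.0 and 18.5 CPM in aged 1, 2 and 3. Every aged sample was above every young one, while the aged samples differed among themselves more than 3-fold. The log2 fold change was 3.20 ± 0.39 (SE, edgeR quasi-likelihood test, adjusted p = 0.00151), and within batches the log2 ratio was 3.86 in batch 1 and 2.38 in batch 2.

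Selp (ENSMUSG00000026580, chr1:164115264-164150026, plus strand) encodes P-selectin, the granule membrane receptor by which activated platelets bind leukocytes. It stood at 9.80, 7.86 and 22.1 CPM in the young samples and at 108, 92.8 and 81.8 CPM in the aged ones. The groups did not overlap, and young 3 was the highest young sample. Selp rose by a log2 fold change of 2.83 ± 0.28 (adjusted p = 0.000636), with 3.61 in batch 1 and 1.98 in batch 2. Clu (ENSMUSG00000022037, chr14:65968483-65981547, plus strand) encodes clusterin, an extracellular chaperone stored in platelet granules. It was at 3.98, 5.11 and 3.87 CPM in young and at 86.5, 45.7 and 18.8 CPM in aged samples. Again no samples overlapped, and aged 3 was the lowest aged sample, as for Vwf. Clu had the largest log2 fold change of the members, 3.82 ± 0.39 (adjusted p = 0.000728), with 4.25 in batch 1 and 3.06 in batch 2.

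The surface receptors of the lineage moved less. Itga2b (ENSMUSG00000034664, chr11:102453297-102470122, minus strand) and Itgb3 (ENSMUSG00000020689, chr11:104608000-104670476, plus strand) encode the integrins alpha IIb (CD41) and beta 3, which pair as the platelet fibrinogen receptor. Itga2b was at 16.1, 13.1 and 18.6 CPM in young and at 41.6, 31.0 and 19.2 CPM in aged samples. Aged 3 lay just above the highest young sample, and the log2 fold change of 1.10 ± 0.28 passed the test (adjusted p = 0.0337). Itgb3 was at 2.58, 2.16 and 21.6 CPM in young and at 34.0, 19.5 and 19.4 CPM in aged samples. Young 3 lay above 2 of the aged samples, and the within-batch log2 ratios were 3.84 in batch 1 and -0.15 in batch 2. Its log2 fold change of 1.64 ± 0.60 did not pass (adjusted p = 0.114), and without young 3 it was 3.45 (adjusted p = 0.000678). The same sample was high in Itgb3 in the other populations, at 27.5 CPM in the progenitors, 23.5 CPM in the other cells and 12.3 CPM in lymphoid-primed cells (Procr-negative cells with a Dntt and an Flt3 UMI). In the latter all samples of batch 2 were at 12.3 to 14.8 CPM and those of batch 1 at 0.51 to 2.54 CPM, whatever their age.

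Gp9 (ENSMUSG00000030054, chr6:87778072-87779768, plus strand) and Gp1bb (ENSMUSG00000050761, chr16:18620317-18622403, minus strand) encode subunits of the GPIb-IX-V complex, the receptor for von Willebrand factor. Gp9 was at 8.99, 13.4 and 6.23 CPM in young and at 28.6, 12.6 and 8.89 CPM in aged samples. The groups overlapped, since batch 1 was higher than batch 2 in both, and the log2 fold change of 1.12 ± 0.23 passed (adjusted p = 0.0144). Within batches it was 1.36 and 0.78. Gp1bb was nearly absent, with 1 to 8 UMIs in each Procr-positive sum, and was removed by the filter on low counts, so 8 of the 9 members were tested. Treml1 (ENSMUSG00000023993, chr17:48359916-48367176, plus strand), a receptor of the platelet alpha granule membrane, was at 1.496 to 2.51 CPM in young and 1.70 to 4.00 CPM in aged samples and did not pass (log2 fold change 0.89 ± 0.36, adjusted p = 0.152).

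Pf4 (ENSMUSG00000029373, chr5:90772435-90773383, plus strand) encodes platelet factor 4, an abundant chemokine of alpha granules. It was at 52.1, 45.2 and 13.3 CPM in young and at 41.4, 17.5 and 16.6 CPM in aged samples. Here the batches stood apart rather than the ages, and the log2 fold change was -0.01 ± 0.18 (adjusted p = 0.99). Thus 5 of the 8 members tested were higher in aged Procr-positive cells and none was lower, beside 6.89% of all 12707 genes tested that were higher. The median log2 fold change was 1.38 over the members tested and 0.01 over all genes tested.

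**Figure D1:**
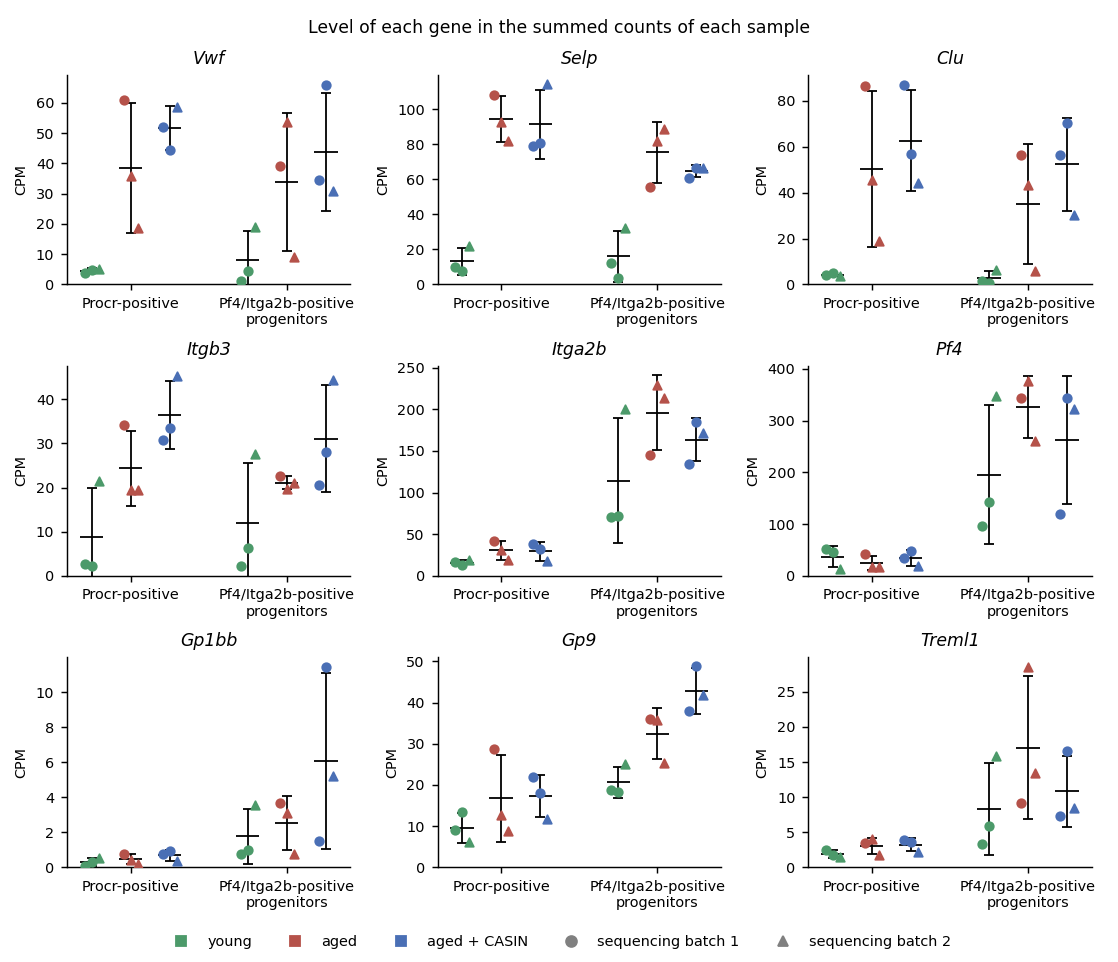
Level of each of the 9 genes in CPM (y axis, from 0) in the summed counts of each sample, for Procr-positive cells and Pf4/Itga2b-positive progenitors in young, aged and CASIN-treated aged mice. Points are samples (circles batch 1, triangles batch 2), horizontal lines are means and vertical lines SD of 3 samples, cut at 0; Vwf in Procr-positive cells was 3.68 to 5.24 CPM in young and 18.5 to 61.0 CPM in aged samples, while Pf4 there separated by batch.

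Dependence on the processing differed between the members. Vwf, Selp and Clu passed whichever sample was left out and with a stricter stem gate (at least 2 Procr UMIs and no Cd48 or Flt3 UMI), where their log2 fold changes were 2.13, 2.79 and 2.81. With no batch term in the fit none of the 5 passed (adjusted p = 0.0782 for Vwf, 0.0782 for Selp and 0.122 for Clu). Gp9 was lost without aged 1 (0.77, adjusted p = 0.165) or without young 1, and Itga2b without aged 1, aged 2, young 1, young 2 or CASIN 2. Itga2b was lost at a mitochondrial limit of 5% as well. Under the strict gate Gp9 (0.86, adjusted p = 0.0922) and Itga2b (0.92, adjusted p = 0.0888) also did not pass.

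Other transcripts of Procr-positive cells moved beside the members. Of the 5 stem cell markers listed, 4 were higher in aged samples, beside 6.89% of all genes tested that were higher. Sult1a1 rose by a log2 fold change of 3.61 ± 0.37. It was at 2.00 to 12.8 CPM in young and 8.79 to 190 CPM in aged samples, which overlapped. Procr, 1 of the 4, rose by 0.59 ± 0.08 and set the gate of these cells, so its value is a description. The summed level of the 5 was 148 to 233 CPM in young and 387 to 803 CPM in aged samples. Procr alone gave means of 135 and 225 CPM. The lymphoid-primed markers Dntt, Flt3 and Satb1 summed to 175 to 287 CPM in young and 64.3 to 186 CPM in aged samples. Endothelial cells also express Vwf and Selp. Their 6 markers summed to 51.6 to 57.1 CPM in young and 59.8 to 64.9 CPM in aged samples, with Tie1 higher by 0.73 ± 0.11 and Emcn lower (-0.55 ± 0.13), and Cdh5, the endothelial cadherin, at 0 in the young samples. The 5 mature platelet markers summed to 0.873 to 5.53 CPM in young and 1.89 to 12.5 CPM in aged samples, with Gp6 at 0 in both; Clec1b and Gp5 among them are also in the lineage list described last. The 6 erythroid markers summed to 2.12 to 5.16 CPM in young and 2.78 to 11.2 CPM in aged samples, and Epor, the erythropoietin receptor, was higher by 2.00 ± 0.43 (adjusted p = 0.017). The part of these cells in the rise was not tested.

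CASIN-treated and untreated aged mice did not separate for any member in Procr-positive cells. Vwf was at 52.1, 44.4 and 58.7 CPM in CASIN 1, 2 and 3, within the aged range. Selp was at 78.8, 80.9 and 114 CPM, and Clu at 87.0, 56.6 and 44.4 CPM. The log2 fold changes against aged controls were 0.37 ± 0.31 for Vwf, 0.02 ± 0.24 for Selp and 0.09 ± 0.30 for Clu, and batches disagreed in sign for all 3 (Vwf -0.34 in batch 1 and 1.11 in batch 2). Itgb3 differed by 0.67 ± 0.54, Itga2b by -0.28 ± 0.27, Gp9 by -0.22 ± 0.21, Treml1 by -0.16 ± 0.34 and Pf4 by -0.04 ± 0.17. None of the 8 passed (smallest adjusted p = 0.955), nor did any other gene (0% of 12707 by edgeR, 462 at an unadjusted p below 0.05, and 0 by DESeq2). Without aged 1, 51 genes passed, and no member was among them.

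Against young controls Clu, Vwf and Selp were higher in CASIN-treated aged samples as well. Clu (3.91 ± 0.38, adjusted p = 0.000382), Vwf (3.58 ± 0.38, adjusted p = 0.000551) and Selp (2.85 ± 0.28, adjusted p = 0.000382) were higher with no overlap of samples. Itgb3, at 30.7, 33.5 and 45.2 CPM, was above all young samples (2.30 ± 0.60, adjusted p = 0.027), and Gp9 was higher by 0.90 ± 0.22 (adjusted p = 0.0215). Itga2b (0.82 ± 0.27, adjusted p = 0.0646), Treml1 (0.72 ± 0.35, adjusted p = 0.177) and Pf4 (-0.05 ± 0.16, adjusted p = 0.874) did not pass. Of all genes tested 10.1% were higher in this comparison, which shares its young samples with the comparison of aged and young. Itgb3 was lost without CASIN 1, 2 or 3 and without young 1 or 2, and Gp9 without CASIN 1, CASIN 3 or young 1. Both were lost at a mitochondrial limit of 5%, and Gp9 also under the strict stem gate. With no batch term Vwf alone passed (adjusted p = 0.0469), and under the strict stem gate Pf4 was lower in CASIN samples (-1.21, adjusted p = 0.00906). The stem marker Sult1a1 (3.82 ± 0.37) and the erythroid marker Epor (2.04 ± 0.41) were higher in CASIN than in young samples. Of the endothelial markers Kdr (1.69 ± 0.33) and Tie1 (0.95 ± 0.11) were higher and Emcn was lower (-0.49 ± 0.13). Flt3 was lower (-1.04 ± 0.30), and the part of these markers was not tested.

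**Figure D2:**
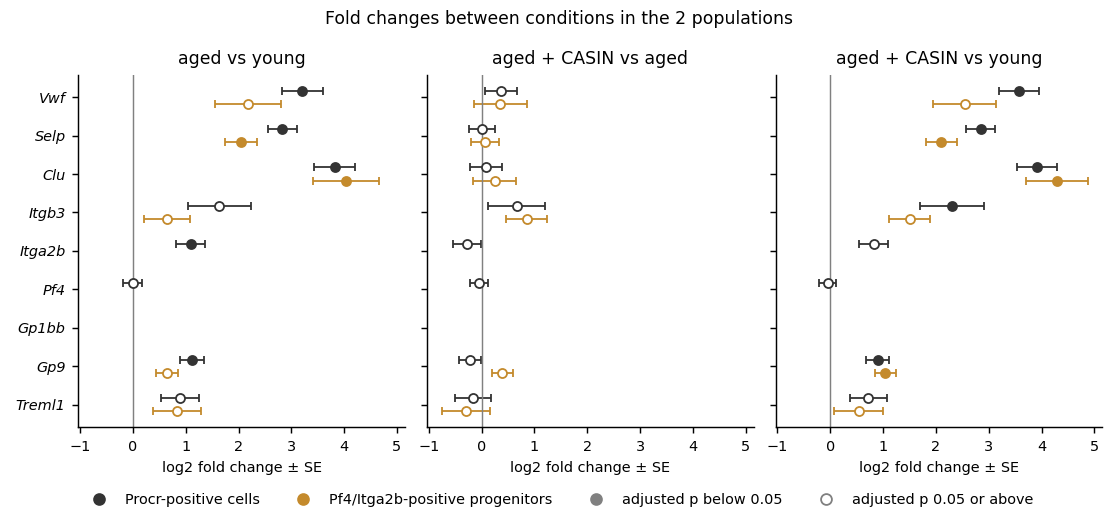
Log2 fold changes (x axis) with their standard errors for the members in Procr-positive cells (dark) and Pf4/Itga2b-positive progenitors (ochre), for aged against young, CASIN against aged and CASIN against young, 3 samples a group. Filled points passed an adjusted p of 0.05; Clu, Vwf and Selp lie at 2.83 to 3.91 in both comparisons with young Procr-positive cells and at 0.02 to 0.37 between CASIN and aged, where no point is filled. Gp1bb was not tested, and Pf4 and Itga2b are left out where they set the gate.

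In the Pf4/Itga2b-positive progenitors Clu, Vwf and Selp were the highest in fold change of the members tested, on far fewer UMIs. Selp was at 12.0, 3.92 and 32.1 CPM in young and at 55.7, 81.6 and 88.9 CPM in aged samples, with no overlap. Its log2 fold change was 2.04 ± 0.30 (adjusted p = 0.0021), with 2.81 in batch 1 and 1.41 in batch 2. In the 112 cells of a gate that used no member (a Gata1 UMI and no Procr UMI) it was 0.78 (adjusted p = 0.89), and 0.55 for CASIN against young (adjusted p = 0.997). Clu was at 1.499, 0.49 and 6.12 CPM in young, from 4, 1 and 12 UMIs, and at 56.3, 43.1 and 5.97 CPM in aged samples. It thus passed the filter on low counts through the aged and CASIN sums. Aged 3 fell below young 3, so the groups overlapped, while the log2 fold change of 4.04 ± 0.62 passed (adjusted p = 0.00305). By DESeq2 Clu did not pass (adjusted p = 0.135).

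Vwf was at 1.12, 4.42 and 18.9 CPM in young progenitors and at 39.2, 53.5 and 8.96 CPM in aged ones. Aged 3 again fell below young 3, and the log2 fold change of 2.18 ± 0.62 did not pass (adjusted p = 0.14). It was 3.82 in batch 1 and 0.73 in batch 2, and it passed without aged 3 (2.57, adjusted p = 0.0305) or young 3 (4.05, adjusted p = 0.00479), at a mitochondrial limit of 5% and with no filter. Gp9 was at 18.7, 18.1 and 25.0 CPM in young and at 36.1, 35.9 and 25.4 CPM in aged samples, which did not overlap by a small margin, and did not pass (0.65 ± 0.21, adjusted p = 0.222). Itgb3 (0.65 ± 0.43, adjusted p = 0.634, and 0.0263 without young 3) and Treml1 (0.83 ± 0.45, adjusted p = 0.526) did not pass, and Gp1bb, with 1 to 22 UMIs a sample, was not tested. Pf4 and Itga2b, which chose these cells, were at 95.6 to 348 CPM and 70.1 to 201 CPM in young and at 261 to 377 CPM and 145 to 229 CPM in aged samples. Of the 6 members tested that did not set the gate, 2 (Clu and Selp) were thus higher, beside 0.738% of 10029 genes. Clu was among the genes tested through its aged and CASIN sums, where it was high, so its place in this count is partly fixed by the filter. With no batch term neither Clu nor Selp passed. The 5 mature platelet markers summed to 2.55 to 10.8 CPM in young and 12.7 to 23.3 CPM in aged progenitors, with Ppbp at means of 0.616 and 2.43 CPM and Gp5 at 6.49 and 14.2 CPM. Gp5 alone of the 5 was tested and did not pass (1.53 ± 0.52, edgeR, adjusted p = 0.239). Ppbp rested on 4 UMIs in young and 12 in aged samples. The part of these markers in the members' change was not tested.

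Between CASIN and aged samples no member passed in these progenitors. Vwf was at 34.4, 66.0 and 30.7 CPM (log2 fold change 0.36 ± 0.51), Selp at 60.5, 66.5 and 66.7 CPM (0.06 ± 0.26) and Clu at 56.5, 70.2 and 30.1 CPM (0.25 ± 0.41). Gp9 was at 37.9, 48.9 and 41.8 CPM, above all aged samples, and did not pass (0.40 ± 0.20, adjusted p = 0.83). Itgb3, at 20.6, 28.1 and 44.4 CPM, had the largest difference of the members (0.85 ± 0.39, adjusted p = 0.83, and 0.0524 to 1 over the alternatives), and Treml1 differed by -0.30 ± 0.46. No gene passed (0% of 10029 by edgeR, 581 at an unadjusted p below 0.05, and 0 by DESeq2), and 40 did without aged 1, none of them a member. Against young samples Clu (4.29 ± 0.58, adjusted p = 0.000923), Selp (2.10 ± 0.29, adjusted p = 0.00103) and Gp9 (1.04 ± 0.20, adjusted p = 0.0115) were higher, beside 0.748% of all genes, and Vwf did not pass (2.54 ± 0.59, adjusted p = 0.0534). Clu entered this test too through its aged and CASIN sums. Vwf passed without aged 1, aged 2, aged 3 or young 3 (adjusted p = 0.0249, 0.0376, 0.0218 and 0.000954), at a mitochondrial limit of 5% and with no filter, and Itgb3 (1.502 ± 0.39, adjusted p = 0.102) passed without aged 1 or young 3 and with no filter. Gp9 was lost without CASIN 2, young 1 or young 2 and with a gate of 1 UMI of Pf4 or Itga2b. Here too, the stem marker Sult1a1 was higher in CASIN than in young samples (2.81 ± 0.33). It was at 4.57 to 35.3 CPM in CASIN and 0.51 to 4.91 CPM in young samples, which overlapped. Sult1a1 also entered this test through its aged and CASIN sums, and it was the only 1 of the 4 stem markers tested that passed.

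Whether the age difference itself differed between the populations was tested by an interaction term. The change in the progenitors minus that in Procr-positive cells was -0.86 ± 0.48 for Vwf (adjusted p = 0.508), -0.66 ± 0.25 for Selp (adjusted p = 0.207), 0.22 ± 0.52 for Clu (adjusted p = 0.929), -0.65 ± 0.29 for Itgb3 (adjusted p = 0.32) and -0.43 ± 0.24 for Gp9 (adjusted p = 0.499). No member passed, beside 1.79% of 12089 genes. A different age response of the members in the 2 populations was not detectable in these samples. Without CASIN 3 the Selp difference passed (adjusted p = 0.0446).

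The populations differed in which members they carried. Procr-positive cells were higher than the other cells for Vwf (log2 fold change 1.82 ± 0.20, higher in 9 of 9 samples), Clu (1.36 ± 0.22, 8 of 9), Treml1 (1.22 ± 0.26, 8 of 9), Selp (0.99 ± 0.14, 8 of 9), Itgb3 (0.75 ± 0.13, 8 of 9) and Gp9 (0.48 ± 0.12, 8 of 9). All 6 passed (largest adjusted p = 0.00176), beside 23.2% of 12119 genes that were higher. The gates took cells with at least 2 UMIs of Pf4 and Itga2b together out of the other cells, but not out of Procr-positive cells. Genes that go with Pf4 or Itga2b are therefore partly fixed to be higher in Procr-positive cells here. In the other cells Vwf fell to 0.37 to 2.85 CPM in young and 4.43 to 28.2 CPM in aged samples, and Selp to 4.66 to 22.1 CPM in young and 34.9 to 57.9 CPM in aged samples. Neither Vwf nor Selp therefore overlapped between young and aged samples there, as in Procr-positive cells. Clu, which did not overlap in Procr-positive cells, did so in the other cells. The highest young sample was at 7.63 CPM there and the lowest aged one at 5.68 CPM. The share of all genes without overlap is not given here, so the lack of overlap is a description.

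The progenitors exceeded Procr-positive cells for the receptors Treml1 (2.01 ± 0.24, adjusted p = 5.87e-07) and Gp9 (1.13 ± 0.14, adjusted p = 6.24e-07), each in 9 of 9 samples. Treml1 reached 3.37 to 15.8 CPM in young and 9.18 to 28.6 CPM in aged progenitors. Vwf (-0.13 ± 0.23), Clu (-0.38 ± 0.25), Selp (-0.34 ± 0.16) and Itgb3 (-0.15 ± 0.17) did not pass between the 2 populations, where 35% of genes passed in either direction. Against the other cells all 6 members that did not set the gate were higher in the progenitors, from 0.60 ± 0.18 for Itgb3 to 3.23 ± 0.27 for Treml1, beside 10.4% of genes. The progenitors were chosen by Pf4 and Itga2b UMIs. Against either population, higher levels of genes that go with Pf4 or Itga2b are therefore partly fixed by the gate. Vwf, Itgb3, Gp9 and Treml1 were higher in 9 of 9 samples, Selp in 7 and Clu in 6. In young samples Clu had a lower mean in the progenitors (2.70 CPM) than in the other cells (5.28 CPM). In this comparison Clu was lost without aged 2 or CASIN 2. Gp1bb was at 0.75 to 11.4 CPM in the progenitors and at 0.94 CPM or below in Procr-positive cells.

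**Figure D3:**
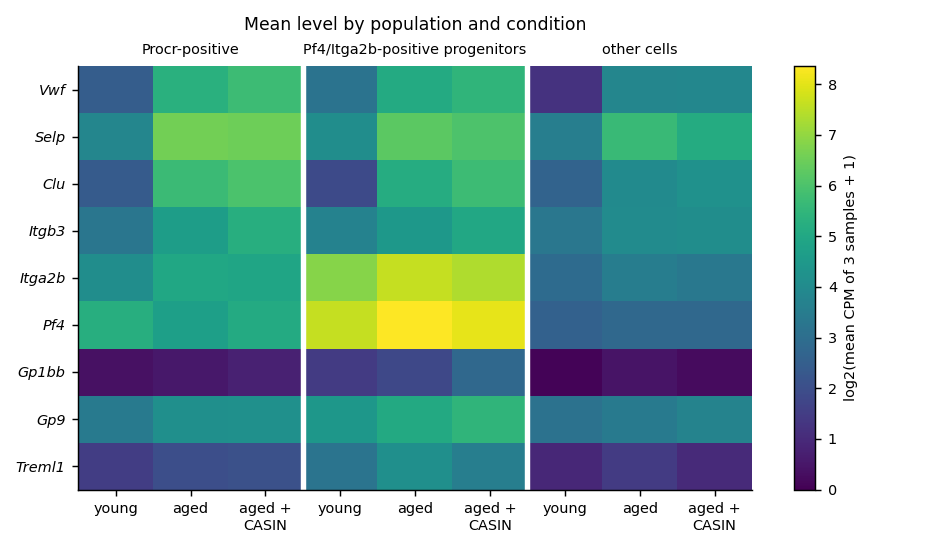
Heat map of the mean level of each gene (rows), as log2 of the mean CPM of 3 samples plus 1 (colour scale), in young, aged and CASIN-treated mice (columns) within Procr-positive cells, Pf4/Itga2b-positive progenitors and the other cells. Vwf, Selp and Clu are brighter in aged and CASIN columns of every population, Treml1 and Gp9 in the progenitors, and Pf4 and Itga2b are brightest in the progenitors because they chose them.

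Single cells were compared after each was thinned to 4000 UMIs, which left out 6 to 68 shallower cells a sample. The gates were applied again to the thinned counts, so the populations were smaller. Procr-positive cells went from 2202 to 1025 in young, from 2723 to 1645 in aged and from 2725 to 1575 in CASIN samples. A cell that lost its Procr UMI was counted as Procr-negative. Procr-positive cells then made up 34.0% ± 0.66 of aged and 19.4% ± 3.36 of young LSK cells (SD, n = 3), with no overlap (exact permutation test, two-sided, p = 0.1, the smallest that 3 against 3 samples can give). Batch 1 gave a difference of 17.2 percentage points and batch 2 one of 10.4. CASIN samples were at 29.3% ± 7.70 and overlapped the aged ones (p = 0.4, exact permutation test). Pf4/Itga2b-positive progenitors were 3.05% ± 1.23 of young, 3.75% ± 0.71 of aged and 3.71% ± 1.16 of CASIN cells. These shares overlapped in all 3 comparisons (exact permutation p of 0.6, 1 and 0.6), and aged minus young came to 1.80 percentage points for batch 1 and to -0.88 for batch 2. Procr itself was higher in aged Procr-positive cells and 1 UMI decided the gate, and the part of that level in the share was not tested.

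Vwf-positive cells became more frequent among Procr-positive cells. Of thinned cells, 7 of 386, 8 of 366 and 6 of 273 had a Vwf UMI in young 1, 2 and 3 (1.81%, 2.19% and 2.20%). In aged 1, 2 and 3 it was 114 of 533, 75 of 551 and 43 of 561 (21.4%, 13.6% and 7.66%). The lowest aged sample had a 95% Wilson interval of 5.74% to 10.2%, above the upper bound of 4.71% of the highest young one, which covers counting error only. The means were 14.2% ± 6.88 and 2.07% ± 0.22 (exact permutation p = 0.1). Batch 1 gave a difference of 19.4 percentage points and batch 2 one of 8.44. With a mitochondrial limit of 5% the difference of the group means, 12.2, became 5.80. CASIN samples were at 19.2%, 14.7% and 26.1%, with a mean of 20.02% ± 5.75, and did not separate from aged ones (exact permutation p = 0.4, with -4.42 percentage points for batch 1 and 15.5 for batch 2). The share was higher with age in the other cells as well. There 0.177% to 1.64% of thinned cells had a Vwf UMI in young and 2.73% to 14.5% in aged samples. These other cells include any that lost their Procr UMI by thinning.

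Lymphoid-primed cells were taken as a comparison for the level of UMIs, although members other than Vwf were found in them too. Unless said otherwise, their shares here and in the next paragraph pool the cells of a group's samples. There 1 of 772 young, 0 of 311 aged and 0 of 374 CASIN cells had a Vwf UMI. The counts of 0 allow shares of up to 0.965% and 0.802%, which covers counting error only. Without thinning, 5 of 1502 young (0.333%), 11 of 575 aged (1.91%) and 12 of 748 CASIN (1.60%) lymphoid-primed cells had a Vwf UMI. The unthinned lymphoid-primed sums held 0 to 9 Vwf UMIs a sample. Their median depth before thinning was 10936 to 17535.5 UMIs a sample, beside 8732 to 12089 for Procr-positive cells. Clu was different, with a UMI in 3.63% of the young lymphoid-primed cells against a mean of 1.47% ± 0.17 of young Procr-positive cells, so that these cells give no lower level to read the young Clu share against. In aged Procr-positive cells the Clu share was 15.95% ± 8.39 and in lymphoid-primed ones 4.18%.

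Selp was found in 4.95% ± 2.39 of young, 30.8% ± 3.85 of aged and 30.5% ± 6.35 of CASIN Procr-positive cells, and in 0.907%, 5.14% and 4.01% of lymphoid-primed cells. In the unthinned lymphoid-primed sums Selp was at 3.29 to 4.38 CPM in young and 12.2 to 24.1 CPM in aged samples. These cells therefore give no level of Selp that is the same at both ages. Itga2b was found in 5.31% ± 1.36, 12.1% ± 3.84 and 9.42% ± 2.35 of Procr-positive cells, and in 1.04%, 1.29% and 2.94% of lymphoid-primed cells. For Gp9 the shares were 4.60% ± 1.05, 7.26% ± 4.86 and 8.26% ± 3.17, and 3.24%, 2.57% and 3.48% of lymphoid-primed cells. For Itgb3 they were 3.09% ± 4.02, 9.23% ± 3.22 and 13.7% ± 4.67, and 0.648%, 6.11% and 2.94% of pooled lymphoid-primed cells. As means of samples these lymphoid-primed Itgb3 shares were 1.80% ± 2.71, 5.49% ± 4.75 and 3.53% ± 2.56. Young samples reached 4.92% and an aged one was at 0%, so the groups overlapped. Pf4 was in 12.8% ± 7.31 of young, 8.59% ± 5.08 of aged and 10.4% ± 4.78 of CASIN cells. Treml1 stayed between 1.29% and 1.503% in the means of the 3 groups. Without thinning, Vwf was found in 3.22% to 4.36% of young, 12.3% to 40.5% of aged and 28.3% to 36.5% of CASIN Procr-positive cells. A Procr-positive cell held UMIs of 0.357 ± 0.024 of the 9 members in young, 0.996 ± 0.355 in aged and 1.16 ± 0.12 in CASIN samples (thinned). A Pf4/Itga2b-positive progenitor held UMIs of 1.67 ± 0.42, 2.36 ± 0.14 and 2.55 ± 0.14. The 9 members include Pf4 and Itga2b, which set the gate of the progenitors. The progenitor values are therefore partly fixed by the gate and cannot be set against those of Procr-positive cells.

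**Figure D4:**
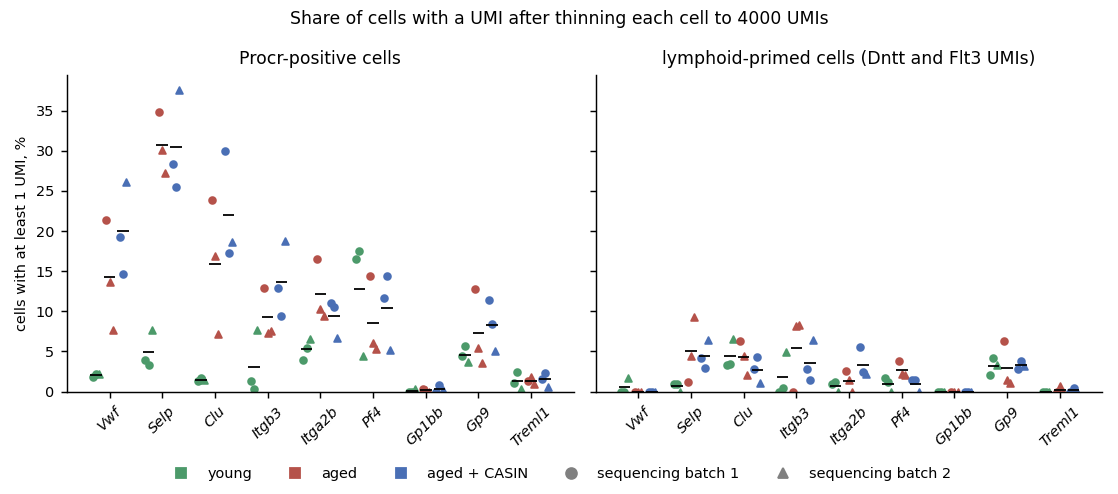
Share of cells with at least 1 UMI of each gene in % (y axis) after thinning to 4000 UMIs, in Procr-positive cells (left) and lymphoid-primed cells (right), by sample, with lines at the mean of 3 samples. Vwf reaches 7.66% to 21.4% in aged Procr-positive cells and stays at 0 in aged lymphoid-primed cells, whereas Itgb3 and Clu are found in both.

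Clu and Selp were found more often in Procr-positive cells with a Vwf UMI than in those without one. Over all 9 samples 599 thinned Procr-positive cells had a Vwf UMI and 3646 had none. Clu was found in 34.9% of the Vwf-positive and 10.3% of the Vwf-negative cells (difference 24.6 ± 9.15 percentage points, SD, n = 9; exact sign-flip permutation test, adjusted p = 0.0156), and Selp in 39.8% and 19.7% (20.2 ± 8.87, exact permutation, adjusted p = 0.0156). Both were higher in 9 of 9 samples. Itga2b differed by 4.44 ± 4.28 percentage points, higher in 8 of 9 samples, and did not pass (exact permutation, adjusted p = 0.0625). Itgb3 (4.15 ± 6.48), Gp9 (0.93 ± 5.94), Treml1 (0.50 ± 3.71) and Gp1bb (0.23 ± 0.53) did not pass either, and Pf4 was lower in the Vwf-positive cells in 6 of 9 samples (-2.75 ± 6.68, exact permutation, adjusted p = 0.344). Without thinning Itgb3 (15.2), Itga2b (8.30), Gp9 (8.06) and Gp1bb (1.15 percentage points) also passed, and at 2000 UMIs Pf4 was lower in Vwf-positive cells (-4.87, exact permutation, adjusted p = 0.0208). Young samples held 21 Vwf-positive cells in all, of which 6 had a Clu UMI (28.6%) beside 0.896% of the Vwf-negative ones.

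**Figure D5:**
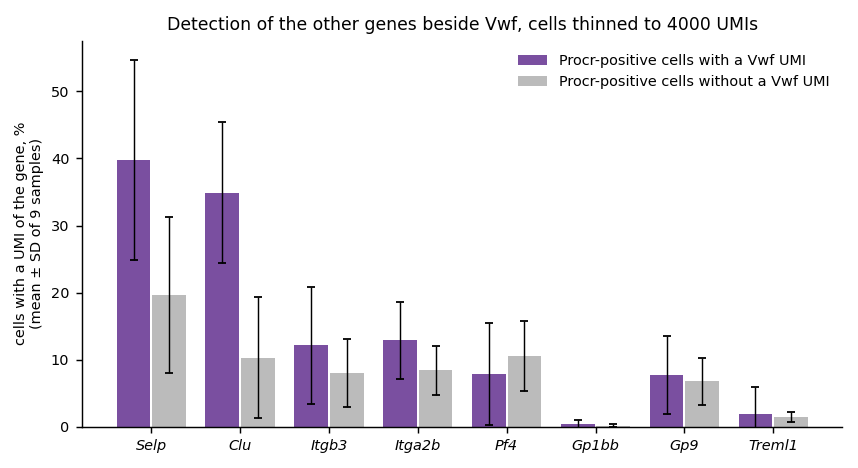
Share of Procr-positive cells with a UMI of each other member in % (y axis, from 0), in cells with (violet) and without (grey) a Vwf UMI, cells thinned to 4000 UMIs. Bars are means and lines SD of 9 samples, cut at 0; Clu (34.9% against 10.3%) and Selp (39.8% against 19.7%) are apart, while the other genes did not pass at this depth.

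Genes with a level most like that of Vwf were sought over the 27 sums of 9 samples and 3 populations, among 7955 genes with a mean of at least 10 CPM. Mmrn1, which encodes multimerin 1, a platelet granule protein, came first (Pearson r = 0.96), followed by Clca3a1 (0.94), Plscr2 (0.94), Aldh1a1 (0.93) and Cysltr2 (0.93). Among the members Clu ranked 16 (0.89), Selp 32 (0.85), Itgb3 52 (0.81), Gp9 193 (0.63), Itga2b 430 (0.50) and Pf4 692 (0.41). The sums of a sample share its library and depth, and the values are a description. Of these sums 9 are the progenitors, where the gate set the levels of Pf4 and Itga2b, so the places of these 2 genes in the order are partly fixed by it.

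A list of 40 further genes of the lineage was followed beside the members. In Procr-positive cells 35 passed the filter, and from young to aged 10 of them rose and none fell, beside 6.89% of all genes tested that rose. Among the surface receptors 3 of 11 rose. Among these were Clec1b, the podoplanin receptor of platelets (3.67 ± 0.53, from 0.39 to 2.84 CPM in the means, on 12 UMIs in young and 90 in aged samples, so that it passed the filter on low counts through the aged and CASIN sums), and the tetraspanin Cd9. Among granule and secreted proteins 5 of 11 rose, Mmrn1 (1.67 ± 0.21), the protease inhibitor Serpine2 (1.37 ± 0.28), the G protein subunit Gng11 (0.99 ± 0.15), the secretion GTPase Rab27b (0.98 ± 0.18) and Cd63. Of 10 transcription factors Gata2, which keeps stem cells and early megakaryocyte progenitors (1.11 ± 0.19), and Zfpm1, the Gata1 cofactor FOG1 (0.70 ± 0.11), rose, and none of 3 cytoskeleton genes did. The largest adjusted p of the 7 genes of this list that are given with values was 0.014. The median log2 fold change of the 35 genes was 0.50, beside 0.01 over all genes tested.

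Between CASIN and aged samples none of the 40 genes passed in either population. In Procr-positive cells 14 of 35 were higher in CASIN than in young samples and none was lower, beside 10.1% of all genes that were higher, led by Clec1b (3.31 ± 0.51), Serpine2 (1.98 ± 0.27), Mmrn1 (1.86 ± 0.20), Mylk, the myosin light chain kinase (1.28 ± 0.27), Gata2 (1.26 ± 0.19), Gng11 (1.25 ± 0.15) and the integrin subunit Itga6 (1.18 ± 0.26). In the Pf4/Itga2b-positive progenitors Gng11 alone of 30 genes tested rose with age (0.78 ± 0.18, adjusted p = 0.0485), beside 0.738% of all genes, and Gng11 (0.86 ± 0.16) and Itga6 (0.77 ± 0.17) were higher in CASIN than in young samples, beside 0.748%.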

How the data were processed

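Single-cell gene expression of 9 samples of LSK cells was analysed from the deposited UMI counts (raw counts per gene and barcode), which the authors had made with Cell Ranger 3.1.0 on mm10, per the submitters' processing notes and the paper's methods. Antibody-tag libraries were not analysed here. Cells were kept with at most 10% mitochondrial UMIs, at most 6000 genes, 1000 to 40000 UMIs and a gene number within 0.4 (residual on the log scale) of that fitted from their UMIs; genes needed 3 cells. This left 15856 of 32387 barcodes and 19517 genes. Scrublet (scanpy 1.11.5) called 67 cells doublets (0.423%), too few for it to have worked, so no cell was removed.

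UMIs were summed by sample and population and tested with the quasi-likelihood test of edgeR 4.0.16 (R 4.3.3, TMM scaling, filterByExpr, batch and group as terms, all 9 samples), with p-values adjusted by Benjamini-Hochberg over all genes tested and a threshold of 0.05. Populations were compared with the sample as a block. DESeq2 1.42.0 served as an alternative. Shares of cells were compared by two-sided exact permutation tests and co-detection by exact sign flips with scipy 1.17.1. Scripts were tested on simulated data.

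The members, lists and tests were chosen with earlier results of these data known. The text names all 9 members, up to 8 genes of the 40-gene list per comparison by the size of log2 fold change among those that passed, the 5 genes most like Vwf, and Procr, Kit and Ly6a as checks; markers and further list genes named with values beside these were chosen after their values were seen. One gene of the list is counted but not reported here. Alternatives were another scaling, no filter, no batch term, other gates, a mitochondrial limit of 5%, doublets left out and each sample left out. Leaving out the 5% of cells with the highest doublet scores was added after seeing the data.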

Additional observations from a re-analysis of the deposited data

Results flagged for a closer look

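The difference between aged and young samples was not the same in the Pf4/Itga2b-positive progenitors as in Procr-positive cells for 5 reported genes of the lineage list, by the interaction term of the edgeR fit (change in the progenitors minus change in Procr-positive cells, on the log2 scale). Of the 36 list genes tested, the term passed as positive for 1 and as negative for 5, of which 1 is not reported here. Of all 12089 genes tested 1.79% passed in either direction. Serpine2 differed by -1.78 ± 0.44 (SE, adjusted p = 0.0187), Mmrn1 by -0.75 ± 0.20 (adjusted p = 0.0408), F2r, the thrombin receptor, by -0.56 ± 0.14 (adjusted p = 0.0173) and Cd63 by -0.36 ± 0.07 (adjusted p = 0.00145). Plek, which encodes the platelet protein pleckstrin, differed the other way, by 0.45 ± 0.12 (adjusted p = 0.0406). Serpine2 was at 0.49 to 25.5 CPM in young and 2.45 to 15.1 CPM in aged progenitors, and at 1.18 to 5.74 CPM in young and 5.51 to 14.7 CPM in aged Procr-positive cells.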

How the results depend on the processing

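With 3 samples a group over 2 batches, the number of genes called moved when 1 was left out and moved further with no batch term. For aged against young 1196 genes passed in Procr-positive cells and 303 to 1394 with a sample left out, lowest without aged 1 and also over 1.5 times lower without young 1 (435) or young 2 (488). In the progenitors 89 passed, and 36 to 146 with a sample left out, with 36 without young 1, 53 without young 2 and 146 without young 3. For CASIN against aged 0 passed, and 0 to 51 in Procr-positive cells and 0 to 40 in the progenitors. For CASIN against young 2092 passed in Procr-positive cells (670 to 2570; 670 without young 1, 674 without CASIN 3, 908 without young 2, 1185 without CASIN 2) and 86 in the progenitors (27 to 254; 27, 31 and 254 without young 1, 2 and 3, 132 without aged 1, 51 without CASIN 1, 47 without CASIN 2). The difference between the populations was called for 216 genes and 48 to 324 (48 without aged 1, 138 without aged 3, 143 without young 3). The cause of each change below was not tested.

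With no batch term 4 and 10 genes passed in Procr-positive cells (aged and CASIN against young), and 0 and 0 in the progenitors. A mitochondrial limit of 5% gave 610 and 657 genes in Procr-positive cells and 1 for CASIN against aged, and the strict stem gate 657 and 1054. With no filter the progenitors gave 328 and 338 genes and 63 for CASIN against aged. By DESeq2 aged against young gave 55 there. The Cd48 gate (which adds a Cd48 UMI) gave 0 and 0 and the Gata1 gate (a Gata1 UMI in place of Pf4 and Itga2b) 2 and 0, each with 2 members tested and none called, and the difference between populations gave 47 with the Gata1 gate. Same replicate numbers did not pair the samples (correlations of their deviations of -0.472 to 0.166). With the replicate number as a block aged against young gave 636 genes in Procr-positive cells, where Gp9 (adjusted p = 0.0756) and Itga2b (adjusted p = 0.145) no longer passed, and 44 in the progenitors, and Treml1 turned to 0.29 for CASIN against aged.

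Shares of cells moved with depth and quality limits. The Procr-positive share, aged minus young, was 10.4 percentage points at 2000 UMIs and 9.60 at a mitochondrial limit of 5%. The Vwf-positive share was 21.6 unthinned and 5.80 at 5% for aged against young, and 29.4 unthinned, 11.1 at 2000 UMIs and 11.2 at 5% for CASIN against young. The progenitor share turned to -0.425 unthinned and -0.280 at 5% for aged against young, and to 0.555 and 0.889 for CASIN against aged, where leaving out a sample gave -0.598 to 0.563. Without thinning 6 genes passed for co-detection with Vwf (Selp, Clu, Itgb3, Itga2b, Gp9 and Gp1bb), and at 2000 UMIs Selp, Clu and Pf4 (lower). At 2000 UMIs Itga2b (-0.14) and Treml1 (-0.30) turned. Co-detection under the strict gate was not run, since a young sample then had no Vwf-positive cell.

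None of the members that changed sign passed before or after the change. In Procr-positive cells, CASIN against aged, Clu was -0.14, Selp -0.091 and Treml1 0.11 at a mitochondrial limit of 5%. With no batch term Gp9 was 0.023, Pf4 0.40, Selp -0.061 and Treml1 0.066. With a sample left out Clu ranged from -0.19 to 0.52, Gp9 from -0.41 to 0.10, Itga2b from -0.44 to 0.041, Pf4 from -0.21 to 0.10, Selp from -0.14 to 0.59, Treml1 from -0.37 to 0.20 and Vwf from -0.10 to 1.10. Treml1 under the strict gate was -0.030 for aged and -0.072 for CASIN against young. Pf4 was 0.0046 without called doublets, 0.0031 without the highest doublet scores and 0.0042 at 5% for aged against young, and -0.22 to 0.11 with a sample left out (-0.21 to 0.13 for CASIN against young). In the progenitors, CASIN against aged, Selp was -0.23 with the Gata1 gate, -0.13 at 5%, -0.19 with no batch term and -0.42 with 1 UMI of Pf4 or Itga2b as the gate, where Clu was -0.045. Gp9 was -0.091 with the Gata1 gate and Treml1 0.41 at 5%. With a sample left out Clu ranged from -0.046 to 0.61, Selp from -0.11 to 0.50, Treml1 from -0.88 to 0.57 and Vwf from -0.055 to 0.93, and Treml1 from -0.13 to 1.23 for CASIN against young. Gp9 was -0.32 with the Cd48 gate for aged against young. For the difference between populations Treml1 was -0.55 with the Gata1 gate, and with a sample left out Clu ranged from -0.34 to 1.55, Gp1bb from -0.42 to 0.085, Treml1 from -0.42 to 0.69 and Vwf from -1.49 to 0.56. Selp kept its sign in that difference and grew from -0.66 to -1.85 with the Gata1 gate.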
